A study of Mus musculus with 20 samples.

Results

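H3K4me1, monomethylation of lysine 4 of histone H3, was compared between induced pluripotent stem (iPS) cells and embryonic stem (ES) cells of the mouse. The comparison used 4 of the 20 libraries of the series, 1 from iPS cells and 3 from ES cells, chosen by the target and cell type in their titles and not by any measured value. The assay was ChIP-seq: chromatin carrying the modified histone is recovered with an antibody, and its DNA is sequenced. The other libraries used for context mapped H3K4me1 in mouse embryonic fibroblasts (MEFs) and whole liver, H3K27ac, H3K4me3 and the acetyltransferase p300 in ES cells, H3K4me3 in liver, and total H3 or whole cell extract as background.

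The iPS library came from 1 line, O6, which was derived from MEFs and grown for 2 passages off MEF feeder cells before fixation. The first ES library came from the V6.5 line (129JAE-C57/B6), likewise grown for 2 passages off feeders. The second came from V6.5 cells carrying the doxycycline-inducible 4F2A transgene, called the 4F2A line here, grown for 1 passage off feeders. The third came from j21, an inbred C57/B6 line, grown for 1 passage off feeders. All 4 lines had been kept on irradiated MEFs and all 4 libraries used the antibody Abcam AB8895. The labels do not give the strain of the iPS line, the way its reprogramming factors were delivered, or whether doxycycline was given to the 4F2A line. The 4F2A line is a derivative of V6.5 and the C57/B6 line is of another strain, so the ES spread covers line, strain and library together. The single iPS library has no spread of its own, and iPS cells as a class cannot be told apart from this 1 line and this 1 library.

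H3K4me1 is laid down mainly by the methyltransferases MLL3 and MLL4 and is found at enhancers and beside promoters. Enhancers that also carry H3K27ac, an acetyl mark placed by p300 and its relative CBP, are called active, and those with H3K4me1 alone are often called primed or poised. At strong promoters the nucleosomes nearest the start site carry H3K4me3 instead, and H3K4me1 flanks them on both sides. Because enhancer patterns differ strongly between cell types, H3K4me1 is used to ask how far a reprogrammed cell has taken on the pattern of ES cells and given up that of its cell of origin.

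The iPS library was the shallowest, with 2.45 M reads (M, 1e6 reads), against 10.9 M, 10.0 M and 6.37 M in the V6.5, 4F2A and C57/B6 ES libraries. Repeated positions made up 5.35% of reads in iPS cells, against 7.05%, 4.96% and 1.63% in the ES lines. All 4 libraries were therefore thinned to 2.29 M distinct reads on the 19 autosomes, and levels are reads per M of these (RPM). A further 3.90 M reads of each ES line served to choose the ES bins. They were not used in any compared value, except where values without thinning are given. Reads of the iPS library entered the choice of classes only through the set of usable bins, those with a read in any library read. The distance between strands, which tracks fragment length, was 174 bp in iPS cells, against 130, 118 and 168 bp in the ES lines.

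The first question was whether the iPS library lay farther from ES cells than the ES lines lay from each other. At equal depth and by RPM, the distance of the iPS library from a pair of ES lines was about that of the third ES line. At this depth counting noise enters both distances and can hide a difference, and its part was not tested. Each ES line was left out in turn, and iPS cells and that line were both set against the mean of the other two, over 5 kb bins called for H3K4me1 in the held-out reads of that pair. With V6.5 left out, over 40049 bins, the median absolute log2 difference was 0.29 for iPS cells and 0.32 for V6.5. With the 4F2A line left out, over 37731 bins, it was 0.31 for iPS cells and 0.27 for that line. With C57/B6 left out, over 34195 bins, it was 0.34 for iPS cells and 0.32 for C57/B6. iPS cells were thus nearer than the left-out ES line in 1 of 3 choices, and farther in the other two. The mean over the 3 choices was 0.31 for iPS cells and 0.30 for an ES line. With all distinct reads kept, when the ES lines are deeper than the iPS library, it was 0.30 for iPS cells and 0.24 for an ES line. The values of the ES pair then include the reads that chose the bins. Other scalings of the thinned reads, given at the end, put iPS cells farther than an ES line, at 0.35 against 0.31 and 0.60 against 0.48.

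Bins at least 2-fold away made up 3.01%, 3.65% and 4.27% of the bins for iPS cells, against 4.72%, 2.45% and 4.95% for the left-out V6.5, 4F2A and C57/B6 lines. The direction was uneven. The median signed log2 difference was 0.12, 0.15 and 0.21 for iPS cells, against -0.15, -0.03 and 0.13 for the left-out lines, so iPS cells lay above the ES pair in every choice. These bins are not replicates, and no p-value is given for them.

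**Figure D1:**
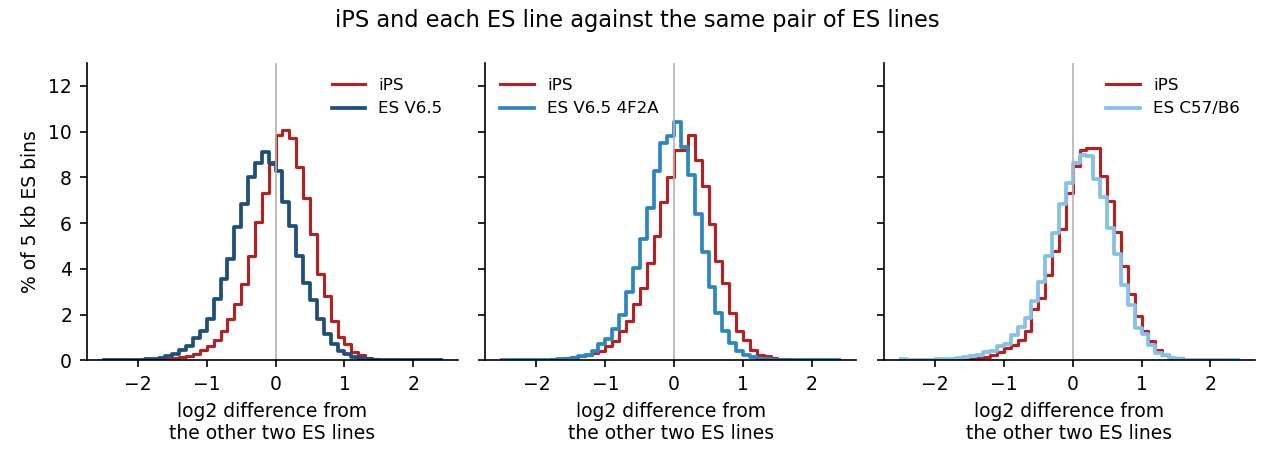
Distribution of the log2 difference in H3K4me1 from the mean of a pair of ES lines, in percent of 5 kb ES bins, for iPS cells (red) and for the ES line left out of the pair (blue). The red curves have nearly the width of the blue ones and their medians lie at 0.12, 0.15 and 0.21.

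The distance depended on the kind of region in the same way for iPS cells and ES lines. At 5 kb bins with H3K4me1 and H3K27ac away from H3K4me3, the median absolute log2 difference was 0.28, 0.30 and 0.34 for iPS cells, against 0.30, 0.25 and 0.31 for the left-out ES lines. At distal bins without H3K27ac it was 0.34, 0.34 and 0.36 for iPS cells, against 0.37, 0.31 and 0.38 for the ES lines. At bins that also held H3K4me3 it was 0.28, 0.31 and 0.33 for iPS cells, against 0.30, 0.26 and 0.32 for the ES lines. Bins without H3K27ac had the largest distance in all 6 comparisons, and their H3K4me1 level was lower.

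Across 68573 5 kb bins the correlation of log2 RPM was 0.666, 0.739 and 0.685 between iPS cells and the V6.5, 4F2A and C57/B6 lines. Among ES lines it was 0.707 between V6.5 and 4F2A, 0.596 between V6.5 and C57/B6, and 0.679 between 4F2A and C57/B6. The 3 correlations of iPS cells therefore lay among or above those of the ES lines, and by this measure the ES line closest to iPS cells was 4F2A. These correlations are across bins, which share sequence composition and depth, and are a description of 4 libraries.

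Calling bins in each library alone gave a second view. A 1 kb bin was called where its reads were at least 3-fold over background, at an adjusted Poisson p of 0.01. Background was the larger of the library's own mean per usable bin and local H3 of ES cells, used for all 4 libraries. At equal depth 82535 bins were called in iPS cells, against 53984, 59312 and 80798 in the V6.5, 4F2A and C57/B6 lines. Of the iPS bins, 40.8% were also called in V6.5, 47.6% in 4F2A and 57.1% in C57/B6. In the other direction, 62.3% of V6.5 bins, 66.2% of 4F2A bins and 58.3% of C57/B6 bins were called in iPS cells. Between pairs of ES lines the share ran from 39.7% to 62.4%. The shares between iPS cells and ES lines lay within or above this range.

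In all, 18603 bins were called in every library. Of these 75.6% carried H3K27ac in both ES H3K27ac libraries, against 42.2% of the 125368 1 kb bins with a mean of at least 5 reads. A call in every library favours bins of strong signal. Bins called only in 1 library numbered 9289 for iPS cells, against 4653, 3555 and 11621 for V6.5, 4F2A and C57/B6. Bins missing only in 1 library numbered 1220 for iPS cells, against 5151, 2823 and 1737 for the ES lines. The iPS library thus lacked fewer bins shared by the others than any ES line did, and its count of private bins lay between those of the ES lines. It also had the most called bins, 82535, against 53984, 59312 and 80798 in V6.5, 4F2A and C57/B6. The more bins a library had called, the fewer it lacked. The part of call number in these counts was not tested. Of the bins private to iPS cells 66.8% lay outside H3K27ac, against 76.8%, 65.4% and 76.7% of the bins private to V6.5, 4F2A and C57/B6. MEF H3K4me1 was called at 24.7% of the bins private to iPS cells, against 19.4%, 25.1% and 25.3% of those private to the ES lines.

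Levels at defined classes of region were then compared. Distal ES bins, more than 2 kb from any H3K4me3 bin of ES cells or liver and called in the held-out reads of at least 2 ES lines, stood for enhancers. They were chosen for their signal in ES cells and not for that in iPS cells. At the 29165 distal 1 kb bins with H3K27ac, H3K4me1 stood at 4.75 RPM per kb in iPS cells, against 3.72, 4.15 and 4.49 in the V6.5, 4F2A and C57/B6 lines (4.12 ± 0.384, SD, n = 3). At the 25926 distal bins without H3K27ac it stood at 3.20 RPM per kb in iPS cells, against 2.62, 2.69 and 3.17 in the ES lines (2.83 ± 0.301, SD, n = 3). iPS cells were above every ES line in both classes, by 1.64 and 1.22 ES standard deviations. At the bins without H3K27ac the distance to the C57/B6 line was small, 3.20 against 3.17 RPM per kb. With 1 library against 3, a one-sided exact permutation test of a level cannot go below 0.25, so no test of these class levels was run and they are given with the ES spread.

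The balance between the classes lay within the ES range. The ratio of H3K4me1 at distal bins without H3K27ac to that at distal bins with it was 0.673 in iPS cells, against 0.704, 0.649 and 0.707 in the ES lines. When distal ES bins were ranked by ES H3K27ac and cut into 5 groups, the fold of iPS cells over the ES mean was 1.09 in the lowest group and 1.13 in the highest, with 1.19 as the largest value in between. In the lowest group iPS cells lay within the ES range, at 2.78 RPM per kb against 2.42, 2.40 and 2.82.

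p300 divided the active class. At distal bins with H3K27ac and p300 iPS cells had 4.81 RPM per kb, against 3.97, 4.60 and 4.62 in the ES lines. At distal bins with H3K27ac and without p300 they had 4.65 RPM per kb, against 3.57, 3.85 and 4.33 in the ES lines. The ratio of these levels was 1.03 in iPS cells, below the 1.11, 1.19 and 1.07 of the ES lines. The gap to the nearest ES line, 1.03 against 1.07, is smaller than the ES standard deviation of 0.0640.

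The level of the unmarked genome moved in the opposite direction. At 1517051 bins called for no mark in ES cells, MEFs or liver, iPS cells had 0.107 RPM per kb, against 0.171, 0.161 and 0.115 in the V6.5, 4F2A and C57/B6 lines. These bins held 16.3% of iPS reads, against 26.0%, 24.4% and 17.4% of ES reads. Distal ES bins stood 37.2-fold over unmarked bins in iPS cells, against 18.6-fold, 21.3-fold and 33.5-fold in the ES lines. The order of the libraries was the same at distal bins and, turned round, at unmarked bins, and the part of this share of unmarked reads in the higher levels at marked classes was not tested. Scaled to the reads in unmarked bins instead, the differences from the ES mean were 2.13, 1.37 and 1.23 RPM per kb. These are for distal bins with H3K27ac, distal bins without it and H3K4me3 bins, with iPS cells above all 3 ES lines. That place was fixed beforehand. iPS cells were already highest by RPM there and had the fewest unmarked reads, so this scaling could only raise them.

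**Figure D2:**
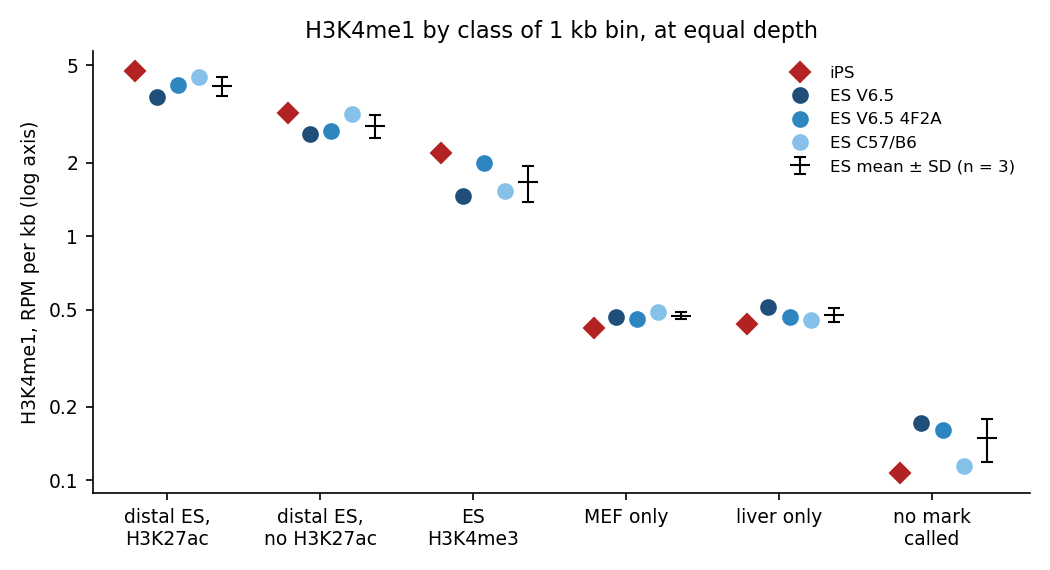
H3K4me1 in RPM per kb (log axis) in 6 classes of 1 kb bin, with iPS cells as red diamonds, the 3 ES lines as blue points and the ES mean ± SD (n = 3) in black. iPS cells lie above all ES lines at both distal classes and at H3K4me3 bins, and below them at MEF-only, liver-only and unmarked bins.

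The cell of origin of the iPS line gave a second question, whether H3K4me1 of MEFs remained. As a class it did not stand above the ES lines. MEF-only bins, 53412 bins called in MEFs and in neither liver nor any held-out ES read set, had 3.75 RPM per kb in MEFs. This choice left out bins called in ES cells, and kept those called in iPS cells. They had 0.421 RPM per kb in iPS cells, against 0.467, 0.460 and 0.491 in the ES lines (0.473 ± 0.0161, SD, n = 3). iPS cells lay below every ES line, 3.18 ES standard deviations under their mean. The 58850 liver-only bins, which no cell of this comparison came from, behaved alike, with 0.438 RPM per kb in iPS cells against 0.513, 0.466 and 0.455 in the ES lines. The ratio of MEF-only to liver-only bins was 0.962 in iPS cells, against 0.911, 0.988 and 1.08 in the ES lines, and so within the ES range. At the 13201 bins called in both MEFs and liver and not in ES cells, iPS cells had 0.759 RPM per kb, against 0.753, 0.746 and 0.804 in the ES lines.

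The sign of the MEF-only difference depended on the scaling. Over unmarked bins, MEF-only bins stood at 3.93-fold in iPS cells, against 2.73-fold, 2.86-fold and 4.28-fold in the ES lines, which puts iPS cells within the ES range. Counted bin by bin, 392 MEF-only bins (0.734%) were called in iPS cells, against 140 (0.262%), 164 (0.307%) and 457 (0.856%) in the V6.5, 4F2A and C57/B6 lines. Feeder cells are themselves MEFs, and iPS cells and V6.5 had 2 passages off feeders, 4F2A and C57/B6 1. The part of feeder cells in these counts was not tested. At ES bins, H3K4me1 shared with MEFs was not favoured either. The ratio of ES bins also called in MEFs to ES bins called in neither MEFs nor liver was 1.12 in iPS cells, against 1.10, 1.16 and 1.11 in the ES lines.

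H3K4me3 bins, which here stand for promoters, differed among the ES lines as well. Over the 25949 bins called for H3K4me3 in ES cells, iPS cells had 2.18 RPM per kb of H3K4me1, against 1.46, 1.99 and 1.53 in the V6.5, 4F2A and C57/B6 lines (1.66 ± 0.284, SD, n = 3). iPS cells were 1.31-fold over the ES mean and above every ES line. The 56186 bins at the edge of these regions, within 2 kb, had 1.91 RPM per kb in iPS cells, against 1.76, 1.75 and 1.83 in the ES lines. H3K4me3 bins over their edges gave a ratio of 1.14 in iPS cells, against 0.830, 1.14 and 0.836 in the ES lines. The 4F2A line matched iPS cells in this ratio, and the other two ES lines lay lower. Set over distal ES bins instead, H3K4me3 bins stood at 0.547 in iPS cells, against 0.460, 0.581 and 0.399, within the ES range.

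The difference grew with H3K4me3. H3K4me3 bins were cut into 5 groups by their H3K4me3 level in ES cells. In the weakest group H3K4me1 stood at 2.45 RPM per kb in iPS cells, against 2.02, 2.43 and 2.42 in the ES lines. In the middle group it stood at 2.13 in iPS cells, against 1.47, 1.97 and 1.54. In the strongest group it stood at 2.03 in iPS cells, against 0.889, 1.61 and 0.617. The fold of iPS cells over the ES mean was 1.07, 1.14, 1.28, 1.54 and 1.96 from the weakest group to the strongest. H3K4me1 was lower at stronger H3K4me3 in all 3 ES lines, and this fall was shallowest in iPS cells and in the 4F2A line. Split by H3K27ac, H3K4me3 bins with H3K27ac had 2.25 RPM per kb in iPS cells, against 1.46, 2.04 and 1.49 in the ES lines. The 1642 H3K4me3 bins without H3K27ac had 1.69 in iPS cells, against 1.59, 1.61 and 1.68.

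Profiles in steps of 100 bp placed the difference at the centre. Around the strongest point of 14542 H3K4me3 regions, H3K4me1 within 200 bp averaged 1.89 RPM per kb in iPS cells, against 0.828, 1.55 and 0.911 in the V6.5, 4F2A and C57/B6 lines. In the flanks, 800 to 1500 bp away, it averaged 2.23 in iPS cells, against 2.08, 2.12 and 2.18. The ratio of centre to flank was 0.846 in iPS cells, against 0.397, 0.730 and 0.418 in the ES lines. The flanks differed little, and the dip at the centre was shallow in iPS cells and the 4F2A line and deep in the other two ES lines. The highest point lay 300 bp from the centre in iPS cells, against 1000, 800 and 1000 bp in the ES lines.

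At 15572 distal p300 regions the ratio was, in contrast, lowest in iPS cells. It was 1.28 in iPS cells, against 1.33, 1.51 and 1.37 in the ES lines, with a centre level of 3.42 RPM per kb in iPS cells against 2.94, 3.40 and 3.43. The iPS level at these centres lay within the ES range. Both libraries with a shallow dip at H3K4me3 centres stood at the ends of the range of distances between strands, with 174 bp in iPS cells and 118 bp in 4F2A. The part of this distance in the dip was not tested.

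**Figure D3:**
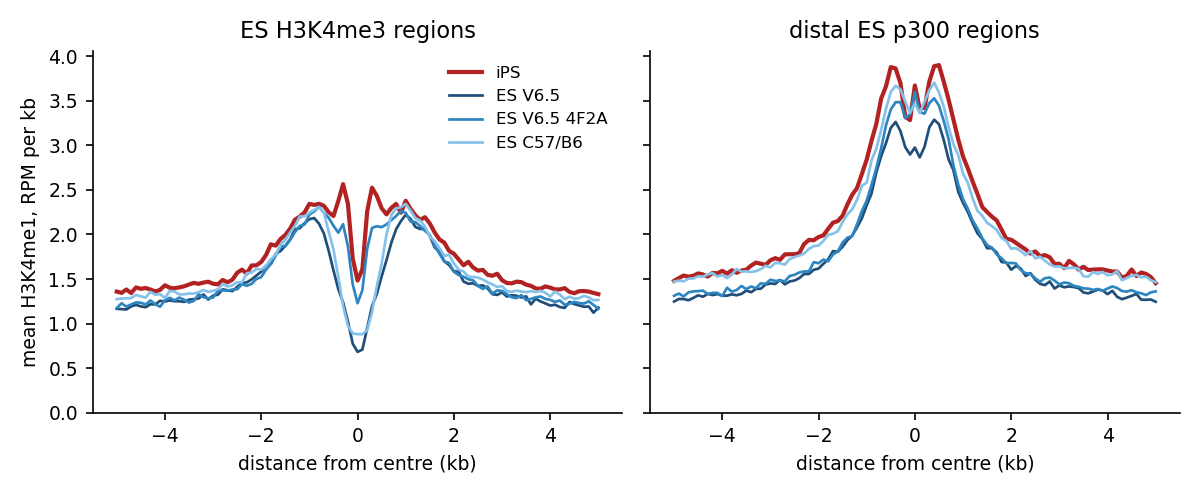
Mean H3K4me1 in RPM per kb within 5 kb of the centre of ES H3K4me3 regions (left) and distal ES p300 regions (right), for iPS cells in red and the 3 ES lines in blue. At H3K4me3 centres iPS cells and the 4F2A line keep a ratio of centre to flank of 0.846 and 0.730, against 0.397 and 0.418 in the other ES lines.

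Single bins were tested with limma, a linear model that shares the spread over all bins. The 3 ES lines gave the spread, and the iPS library was assumed to vary like an ES line. At 5 kb the shared spread weighed as 56.5 degrees of freedom, against 2 from a bin's own ES values. The p-values therefore do not judge iPS cells by each bin's own ES spread alone. Few bins differed. Of 68573 5 kb bins tested, 9 were higher in iPS cells (0.0131%) and 4 were lower (0.00583%) at a Benjamini-Hochberg adjusted p of 0.05. At an unadjusted p under 0.05 the counts were 2437 and 903. Of 125368 1 kb bins tested, 65 were higher (0.0518%) and 6 lower (0.00479%). The median log2 difference over all 5 kb bins tested was 0.17, and it was -0.16 over the 433610 bins left when the filter on reads was dropped. iPS cells were above all 3 ES lines at 32.7% of 5 kb bins and below all 3 at 13.9%. The C57/B6 line was the highest of the 4 at 29.7% and the lowest at 18.2%, and V6.5 was the highest at 16.0% and the lowest at 33.2%.

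The 9 higher bins lay mostly at H3K4me3. ES H3K4me3 was called in 8 of 9, against 19.1% of the bins tested, and in 57 of the 65 higher 1 kb bins, against 6.11% of those tested. ES H3K27ac, MEF H3K4me1 and liver H3K4me1 were called in all 9, against 50.6%, 49.5% and 48.4% of the bins tested. In all 9 the 4F2A line was the highest ES line and the C57/B6 line the lowest, the order also seen at the bins of strongest H3K4me3. Of the 65 higher 1 kb bins, 59 held MEF H3K4me1, against 32.4% of those tested, and 39 held liver H3K4me1, against 31.5%. The part of MEF cells in these bins was not tested. Bins called in held-out reads of ES cells were present in all 9 and in 55 of the 65, against 67.6% and 67.1% of those tested. MEF-only bins leave such bins out, so the iPS level at MEF-only bins does not bear on them. Whether higher 1 kb bins outside the ES calls fall among the MEF-only bins was not checked.

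The highest of them was a bin on chromosome 13 (109010001 to 109015000), with 250 reads in iPS cells, against 39, 79 and 5 in V6.5, 4F2A and C57/B6. That is 109 RPM in iPS cells against 17.9 ± 16.1 RPM in ES cells (SD, n = 3), or 3.17 higher on the log2 scale (SE 0.521; adjusted p = 0.00226 by limma). Its ES values were widely spread, and iPS cells lay above all of them. The SE and p-value rest mainly on the spread shared over bins, not on that of this bin. In the reads of 1 kb bins, the signal fell on 109010001 to 109011000, with 230 reads in iPS cells against 32, 68 and 0.

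The second, on chromosome 18 (34985001 to 34990000), had 322 reads in iPS cells, against 63, 147 and 23, or 2.38 higher on the log2 scale (SE 0.367; adjusted p = 0.000705 by limma). The third, on chromosome 8 (125360001 to 125365000), had 125 reads in iPS cells, against 28, 51 and 18, or 2.01 higher on the log2 scale (SE 0.380; adjusted p = 0.0171 by limma). The other called bins were higher by 1.32 to 1.94 on the log2 scale. In linear terms the 9 folds ran from 2.49 to 8.97. The bin that held no H3K4me3 was on chromosome 15 (77730001 to 77735000), with 201 reads in iPS cells against 74, 131 and 51.

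The 4 lower bins lay at 3 places, 2 of them side by side on chromosome 12. There the bin 109975001 to 109980000 had 3 reads in iPS cells, against 31, 35 and 37 in the ES lines. Its log2 difference was -2.83 (SE 0.436, limma adjusted p = 0.000705), and it carried H3K27ac, H3K4me3 and p300 in ES cells. The ES lines lay close together and iPS cells far below them.

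The next bin, 109980001 to 109985000, had 1 read in iPS cells, against 21, 22 and 16 (log2 difference -2.76, limma adjusted p = 0.0390). On chromosome 2 (162755001 to 162760000) there were 7 reads in iPS cells, against 55, 58 and 29 (log2 difference -2.33, limma adjusted p = 0.00631), at a bin with H3K27ac and p300 and no H3K4me3 in ES cells. On chromosome 7 (24755001 to 24760000) there were 3 reads in iPS cells, against 16, 28 and 29 (log2 difference -2.36, limma adjusted p = 0.0492). All 4 lower bins held H3K27ac and p300 in ES cells, against 50.6% and 33.4% of the bins tested.

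Of the bins named next by size alone, the largest lower value was on chromosome 13 (29655001 to 29660000), listed with 0 reads in iPS cells against 17, 11 and 17. It did not pass the test (limma adjusted p = 0.152). A run around chromosome 16 (22315001 to 22320000) had 2 reads in iPS cells against 21, 32 and 15 (limma adjusted p = 0.0536), at a place with H3K27ac and p300 in ES cells. A further bin, on chromosome 8 (87550001 to 87555000), had 130 reads in iPS cells against 34, 77 and 5 (limma adjusted p = 0.152).

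**Figure D4:**
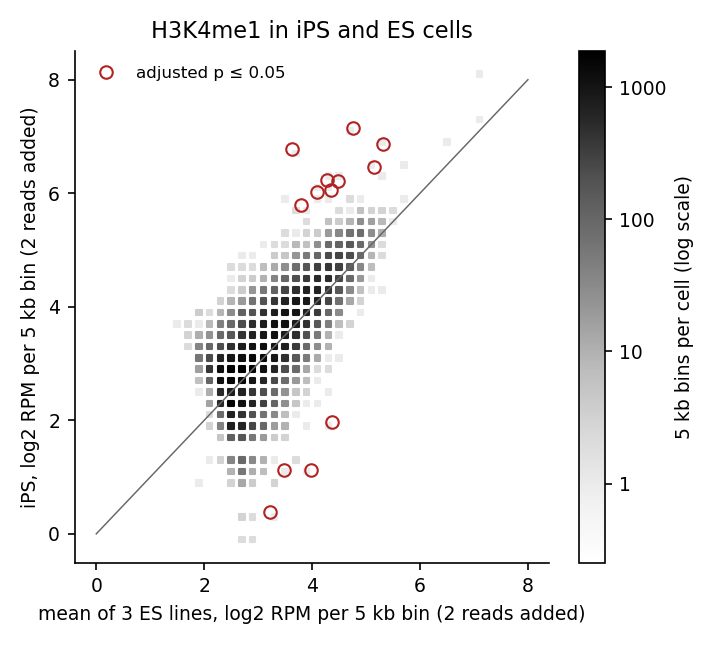
Each grey cell counts 5 kb bins by mean log2 RPM of the 3 ES lines (x) and log2 RPM of iPS cells (y), with 2 reads added, and red circles mark bins at adjusted p of 0.05 or less. The 9 circles above the diagonal and 4 below it stand off a cloud of 68573 bins.

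Which bins passed depended on how the fit was made. Left as whole counts, without spreading each count over its unit, the same model called 0 bins at 5 kb and 0 at 1 kb, with 1781 higher and 827 lower 5 kb bins at an unadjusted p under 0.05. limma-voom likewise called 0 at both sizes. The chromosome 13 bin kept its call under 10 of 14 alternatives and the chromosome 12 bin under 11 of 14, and none of the 20 named 5 kb bins changed sign.

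Of the 5 highest bins by the mean of the 4 libraries, 4 had 22.3 to 158 RPM in ES whole cell extract, and the fifth had 5.03 RPM. The bin on chromosome 17 (39450001 to 39455000) had 285 RPM in iPS cells, against 67.6, 187 and 215 RPM in the ES lines, and 158 RPM in ES whole cell extract. Its 1 kb bins from 39452001 to 39455000 are among the higher 1 kb bins with ES H3K4me3. Each had 25.6 to 49.9 RPM in ES whole cell extract. A pair of bins on chromosome 11 (3040001 to 3050000) had 117 and 161 RPM in iPS cells, within the ES ranges of 67.1 to 135 and 124 to 194 RPM. Whole cell extract reached 67.4 and 68.9 RPM there. The other two were a bin on chromosome 17 (6400001 to 6405000), with 95.9 RPM in iPS cells against 34.9, 68.9 and 62.3 RPM, and a called bin on chromosome 5 (143170001 to 143175000), with 116 RPM against 41.4, 70.6 and 20.1 RPM. A 1 kb bin in the chromosome 11 pair, 3044001 to 3045000, passed the test as higher although its 179 reads in iPS cells lay within the ES values of 82, 99 and 186.

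Wider windows of 100 kb showed a stretch of lower H3K4me1 in iPS cells. Of 21545 windows tested, 1 was higher (0.00464%) and 8 were lower (0.0371%), and iPS cells were below all 3 ES lines at 35.5% of windows. The median log2 difference over these windows was -0.24 by RPM, 0.02 with TMM scaling and 0.20 with scaling to unmarked bins, so the general direction turns with the scaling. At this size limma used 1 common spread, following level, for all windows. Of the 8, 3 lay side by side on chromosome 12 (109900001 to 110200000), around the 2 lower bins described above. The first window had 38 reads in iPS cells, against 175, 211 and 231 in V6.5, 4F2A and C57/B6 (log2 difference -2.35, limma adjusted p = 1.23e-16). The second had 38 reads in iPS cells, against 182, 144 and 145 (log2 difference -1.97, SE 0.263, limma adjusted p = 8.38e-10). The third had 30 reads in iPS cells, against 137, 102 and 68 (log2 difference -1.64, SE 0.306, limma adjusted p = 0.000356). iPS cells lay below every ES line in each.

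Over the 300 kb together iPS cells had 46.2 RPM, against 215, 199 and 194 RPM in the ES lines (203 ± 11.3, SD, n = 3), or 22.8% of the ES mean. The 300 kb held 106 iPS reads, where the unmarked level of that library would give 73.8. Of the 60 5 kb bins there, 10 were deep enough to test, mainly through reads of the ES lines. iPS cells were the lowest of the 4 libraries at 8 of the 10 and the highest at 0. Over all 5 kb bins tested these shares were 13.9% and 32.7%. Weak signal was lower too. The 146 unmarked 1 kb bins of the stretch held 27 iPS reads. That is 0.0806 RPM per kb in iPS cells, against 0.427, 0.325 and 0.209 in the ES lines. Over the genome such bins had 0.107 RPM per kb in iPS cells, against 0.171, 0.161 and 0.115. The stretch was chosen for its low iPS count in these same reads, so its bins describe it and add no support.

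The windows around it differed less. In the window before the stretch iPS cells had 61 reads, against 75, 106 and 109 in the ES lines, and in the window after it 31 reads, against 48, 55 and 30. In the next window, 110300001 to 110400000, iPS cells had 256 reads, against 185, 256 and 238. Summed over the stretch, ES H3K27ac stood at 267 and 251 RPM in the pair of H3K27ac libraries, and p300 at 232 and 215 RPM. ES H3 stood at 175 RPM there, ES whole cell extract at 185, MEF H3K4me1 at 183 and liver H3K4me1 at 124. Reads spread evenly over all usable bins would give 134 RPM. The ES marks lay mainly in the first window, with H3K27ac at 143 and 140 RPM, p300 at 115 and 107, and H3 at 53.5. In the third window H3K27ac stood at 54.8 and 42.8 RPM and p300 at 51.4 and 49.9, under H3 at 61.2. The first and second windows were called in 14 of 15 settings and the third in 11 of 15. All 3 lost the call when libraries were scaled to unmarked reads, with log2 differences of -1.91, -1.54 and -1.21. In the third window the call was also lost under limma-voom and without V6.5 or without 4F2A.

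**Figure D5:**
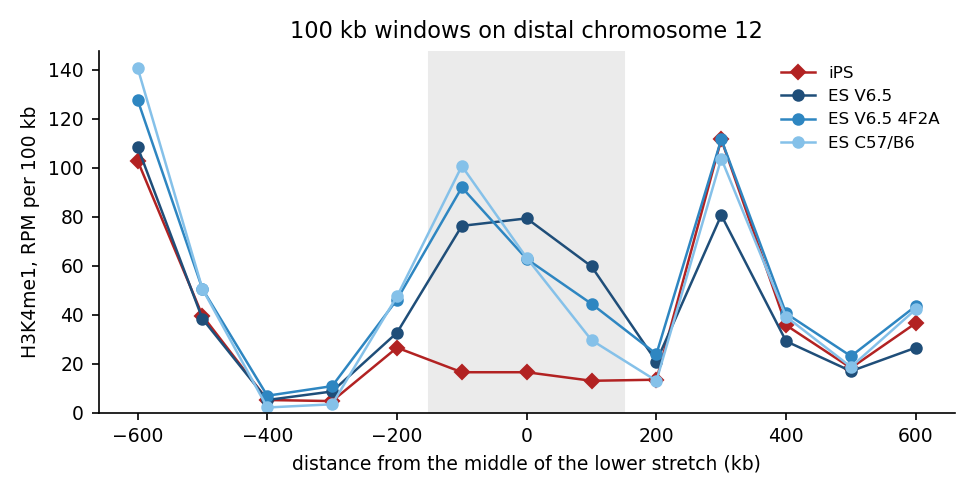
H3K4me1 in RPM per 100 kb window against distance from the middle of the lower stretch on chromosome 12, with iPS cells in red and the 3 ES lines in blue, and the 3 called windows shaded. iPS cells stand at 13.1 to 16.6 RPM in the shaded windows, where the ES lines stand at 29.6 to 101 RPM, and stand below them in the window before as well, at 26.6 RPM against 32.7 to 47.5 RPM.

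The other lower windows lay apart from this stretch. A window on chromosome 9 (32400001 to 32500000) had 36 reads in iPS cells, against 134, 114 and 103 in the ES lines (log2 difference -1.65, limma adjusted p = 5.36e-05). A pair of windows on chromosome 6 (140200001 to 140400000) had 72 and 50 reads in iPS cells, against 182, 186 and 203 in the first and 117, 140 and 141 in the second. Single windows on chromosomes 7 and 18 completed the list. The 1 higher window, on chromosome 17 (6500001 to 6600000), had 145 reads in iPS cells, against 50, 29 and 86 (limma adjusted p = 0.0106). That call was lost without the 4F2A line, the lowest ES line there. Leaving out the C57/B6 line, whose unmarked share is nearest that of iPS cells, gave 314 higher and 6253 lower windows.

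Whole chromosomes differed little. Density of reads in unmarked bins, all distinct reads kept, was taken per autosome relative to all unmarked autosomal bins of the same library. In iPS cells it lay between 0.936 and 1.07 times the ES mean. It was below the ES range on chromosome 1, at 0.876 against 0.924, 0.919 and 0.904 in V6.5, 4F2A and C57/B6. On chromosomes 2, 4, 9 and 19 it was above that range, and on the others within it. Chromosome 8 stood at 1.05 in iPS cells, against 1.15, 1.02 and 1.05 in V6.5, 4F2A and C57/B6. The X chromosome held 1.15% of distinct reads in iPS cells, against 1.54%, 1.43% and 1.15% in the ES lines. The Y chromosome held 22.8 reads per M distinct reads in iPS cells, against 88.3, 66.3 and 19.6 in the ES lines and 287 in ES H3. In both, iPS cells were closest to C57/B6, the ES library with the lowest share of unmarked reads.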

How the data were processed

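Of the 20 libraries, 16 were read and 4 (neural progenitor libraries, liver H3K27ac and liver whole cell extract) were not needed. The authors deposited, per library, aligned reads as signed positions, neither counts nor signal, and no other value; the aligner and the build were not given in the sources used here. Positions lay within the chromosome lengths of mm8. The annotation at hand was of GRCm38.p6, so no gene name or sequence was attached to a bin, and labelled cell types were not checked against marker genes. Coordinates are 1-based, as in the files.

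Reads were counted once per position and strand, moved 100 bp, binned at 1, 5 and 100 kb on chromosomes 1 to 19, and thinned with a fixed seed. Bins were called at 3-fold over background, at an adjusted Poisson p of 0.01. Background was the larger of the library's mean per usable bin and scaled H3 (p300: whole cell extract) averaged over 5000 bp. limma-trend 3.58.1 (R 4.3.3) tested log2 RPM with a prior count of 2, over bins with a mean of at least 10 reads (5 at 1 kb), with Benjamini-Hochberg adjustment at 0.05. On simulated data the planned fit failed because equal whole counts have no variance, so each count was spread at random within 0.5 read on either side; the planned fit is kept as an alternative. The 100 kb windows and this step were added after seeing the data. Python 3.11.15 and numpy 2.4.6 did the rest.

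Named bins are, per direction, the 10 largest differences among called 5 kb bins, filled up from bins where iPS cells lay outside the ES range, with bins within 10 kb joined. The 5 highest bins and the 3 largest windows per direction were added. Further 1 kb bins, and single windows, were named after their values were seen. Comparisons, classes and lists were chosen with earlier results of these data known. The labels name the lines but not the cultures, so the p-values rest on library-to-library spread that may be technical in part. Alternatives covered repeats, read shift, thinning, scaling, prior count, filters, thresholds and each ES line left out.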

Additional observations from a re-analysis of the deposited data

How the results depend on the processing

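No paired analysis was possible because there is 1 iPS library and the labels pair it with no ES line. Under all 8 alternatives that keep the 3 lines, iPS cells stayed above every ES line at distal bins with H3K27ac and at H3K4me3 bins. At distal bins without H3K27ac this held under 6 of 8. Among these alternatives, scaling to unmarked bins could only raise iPS cells relative to the ES lines. The median log2 difference over 5 kb bins was 0.17 by RPM, 0.25 by TMM and 0.58 scaled to unmarked bins, and -0.16 without the filter. With unmarked scaling the class differences became 2.13, 1.37 and 1.23 RPM per kb at distal bins with H3K27ac, without it and at H3K4me3 bins, against 0.631, 0.368 and 0.521. At MEF-only bins the difference of -0.0512 RPM per kb became -0.0224 with TMM, -0.0218 with classes called at 5-fold, and 0.0883, a change of sign, with unmarked scaling. Without 1 ES line these class differences ran from 0.432 to 0.815, 0.263 to 0.541, 0.422 to 0.684 and -0.0575 to -0.0422.

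The mean distance was 0.31 for iPS cells and 0.30 for an ES line. It became 0.35 and 0.31 with TMM, 0.60 and 0.48 with unmarked scaling, and 0.39 and 0.39 in 1 kb bins. Without thinning it became 0.30 and 0.24. Sharing of iPS bins with an ES line averaged 48.5%, and 68.7% where the next bin counted too.

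Counts of called bins moved most, and the cause was not tested. The weight of the shared spread moved as well. At 5 kb it was 56.5 degrees of freedom, against 7.53 with counts left whole and 8.27 with limma-voom. At 1 kb it was 108, against 2.93 and 2.90. The 9 higher and 4 lower 5 kb bins became 0 higher with repeats kept, 5 higher with another thinning seed, 0 and 16 without thinning, 1 and 0 with unmarked scaling, 0 and 0 with limma-voom, and 0 and 0 with counts left whole. Lower 5 kb bins numbered 2 with a shift of 60 bp and 7 with a prior count of 0.5. Without the filter there were 2 and 7, with a filter 2 times as strict 26 higher, and without 1 ES line 23 to 36 higher and 2 to 16 lower. The 65 higher and 6 lower 1 kb bins became 3 and 1 with repeats kept, 43 and 3 with the shift of 60 bp, and 3 and 62 without thinning. They became 24 higher with a prior count of 0.5, 0 lower with unmarked scaling, 0 and 0 with limma-voom or counts left whole, 0 and 0 without the filter, and 39 and 1 with the stricter one. Without 1 ES line they ran from 6 to 132 and from 1 to 5.

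The 1 higher and 8 lower 100 kb windows became 2 higher with repeats kept or another seed, 15 and 52 without thinning, 3 higher with TMM, 3 lower with unmarked scaling, and 2 and 3 with limma-voom. They became 4 and 16 without the filter and 4 and 21 with the stricter one. Without 1 ES line they ran from 0 to 314 and from 2 to 6253, the highest values without C57/B6. Over all named bins and windows, 241 alternative values kept their side of the threshold, 87 lost the call and 22 gained one, with no change of sign.

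The depth of 2.29 M reads gives under 1 read per unmarked 1 kb bin, so a low count in iPS cells is not an absence of the mark.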
